A study of Camelus dromedarius with 30 samples.

Results

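The genes described here encode proteins that build the kidney's extracellular matrix, anchor cells to it, or cut it and keep the cutting in check. They were taken by name: a gene entered if the study's lists of differentially expressed genes (DEGs) or of changed proteins carried it under a symbol that began with 1 of 13 family prefixes (COL, LAMA, LAMB, LAMC, ITGA, ITGB, FBLN, FBN, THBS, MMP, TIMP, ADAM or SERPIN). This gave 40 of the 22444 genes in the count table. They were 7 collagens, 3 laminins, 4 fibulins or fibrillins, 3 thrombospondins, 9 integrins, 2 integrin-related genes, 4 proteases and 8 protease inhibitors. These classes follow the gene name and not the activity of each protein, so not every member need cut or block proteins. Of the 40 genes, 17 stood on an RNA list of the same libraries and 23 on a protein list alone, so RNA changes of the 17 in the comparison that listed them are a description and no independent evidence. The list of DEGs between rehydrated and dehydrated medulla could be read only in part, and a gene on its unread portion would not be known as such here.

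As background, collagens, laminins, fibulins and fibrillins assemble into the basement membranes on which tubule cells rest and into the fibres of the interstitium between tubules and vessels. Integrins are receptors made of an alpha and a beta chain that span the cell membrane and bind matrix proteins outside and the cytoskeleton inside. Metalloproteases of the MMP and ADAM families cleave matrix or cell surface proteins, while TIMP3 and many serpins block proteases by binding them. In the kidney the interstitial matrix is more abundant in the medulla, where the tissue is also exposed to high and changing salt and urea.

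Cortex and medulla of the kidney were sampled from dromedary camels, all male and aged 4 to 5 years. There were 5 control camels with free access to water, 5 dehydrated camels that went 20 days without water while food was offered, and rehydrated camels, 5 for each tissue, that had the same 20 days and then 3 days with water. Each group of tissue and treatment had 5 libraries from separate animals, 30 in all. The labels number the cortex and medulla libraries alike, but for the rehydrated camels they disagree: the library codes run from 2 to 6 in the cortex and from 1 to 5 in the medulla. The paper states that both tissues came from 5 rehydrated camels, which these codes leave in doubt. Which of the rehydrated libraries share a camel is therefore not known here.

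Libraries held 12634346 to 20005136 counted read pairs (median 15030454 in the cortex and 18799855 in the medulla), and the variation between animals across all genes (biological coefficient of variation 34%) exceeded counting error for all but low counts. The 40 genes took 0.309 to 0.390% of the counts of a cortex library and 0.508 to 0.684% of those of a medulla library. Levels are given as CPM, the read pairs of a gene scaled to a fixed library total after TMM normalization, which takes the bulk of genes as the unchanged reference. RNA integrity averaged 8.1, 7.7 and 7.6 in control, dehydrated and rehydrated cortex and 8.5, 8.8 and 8.7 in the medulla, so it ran with the tissue and with dehydration in the cortex. Its part in the results was not tested beyond the fit with it as a covariate. Cell type markers could be looked up only where the study's own lists of changed genes or proteins held them and so gave a symbol. SLC22A8, a transporter of the proximal tubule and hence of the cortex, was at 157 to 1404 CPM in the cortex against 0.768 to 61.9 in the medulla. The water channels AQP2 and AQP3 of the collecting duct and UMOD of the thick ascending limb were higher in the medulla under all 3 treatments. SCNN1A, the other collecting duct marker tested, was not called (mean 509, 339 and 456 CPM in control, dehydrated and rehydrated cortex against 462, 249 and 379 in the medulla). SYNPO, the 1 podocyte marker of 5 with a symbol, was at 0.685 to 7.74 CPM in the cortex and 6.26 to 23.3 in the medulla, against what its place in the glomerulus would give. The endothelial markers PECAM1 and CDH5 and the fibroblast and pericyte marker PDGFRB were called higher in the medulla under all 3 treatments. ACTA2 of smooth muscle was called higher in control and rehydrated medulla and lower in dehydrated medulla. The part of such cells in the tissue differences was not tested. No leukocyte or urothelium marker had a symbol. In such whole-tissue RNA, fewer cells of a type and less RNA per cell cannot be told apart.

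Of the 40 genes, 39 passed the filter on low counts and were tested among 15376 genes. SERPINA7, thyroxine-binding globulin, had 8 counts in all 30 libraries and was not tested. Per kilobase of exon, the levels of the genes spanned a wide range. SERPINA5, the protein C inhibitor, stood at the top in the cortex at 385 ± 63.9 RPKM (mean ± SD, n = 15), where RPKM is the normalized CPM per kilobase. SERPINB6, an intracellular serpin, followed at 250.3 ± 55.2 RPKM, SERPINF2, the alpha-2-antiplasmin that blocks plasmin, at 239 ± 120.4, ITGB1, the beta chain shared by many integrins, at 101 ± 8.88, and ITGB5, a vitronectin receptor chain, at 79.4 ± 13.3. SERPINB6 and SERPINF2 overlapped in their spread and their order is not fixed by these libraries. In the medulla SERPINA5 was again first at 416 ± 129 RPKM, followed by TIMP3, the matrix-bound inhibitor of metalloproteases, at 226 ± 52.4, ITGB1 at 146 ± 17.1, THBS1 at 98 ± 24.4 and SERPINB6 at 94.2 ± 19.9. THBS1, a secreted adhesive glycoprotein, and SERPINB6 differed there by less than their spread. The heatmap of tested genes by library shows that the line between cortex and medulla, rather than the treatment, set the largest blocks of colour.

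**Figure D1:**
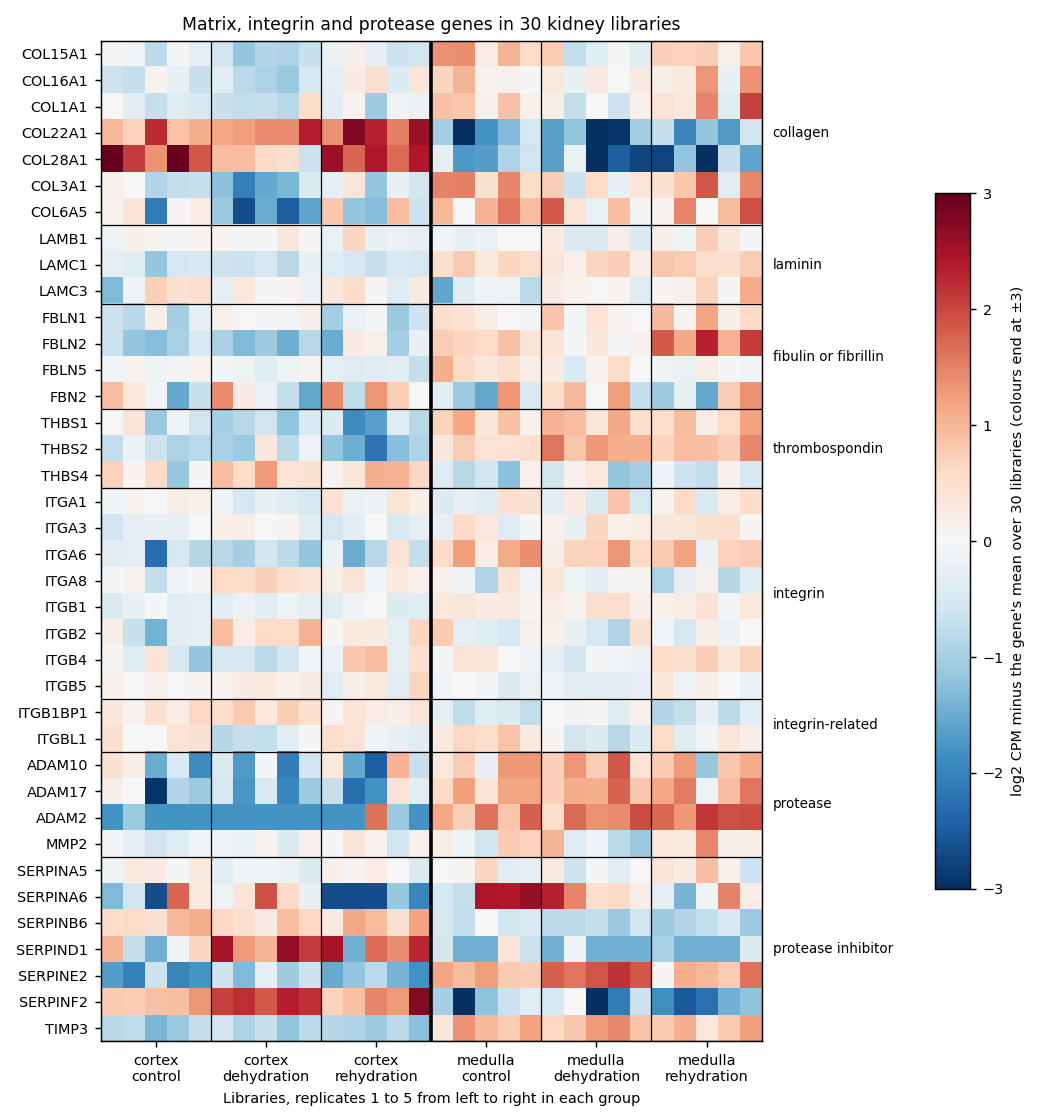
Heatmap of 38 of the 39 tested genes (rows, grouped by family) in 30 libraries (columns, replicates 1 to 5 of each group from left to right), with colour for log2 CPM minus the gene's mean over all libraries, ending at ±3. COL22A1, COL28A1, SERPINF2 and SERPINB6 were high in cortex libraries and SERPINE2, TIMP3, ADAM2 and THBS2 in medulla libraries, with FBLN2 highest in rehydrated medulla.

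Between treatments within a tissue, few of the genes differed in the main fit. DESeq2 called more of them between dehydrated cortex and either other cortex group, as given at the end. Calls below used an adjusted p under 0.05, with p-values from the quasi-likelihood test of edgeR adjusted by the Benjamini-Hochberg method over the 15376 genes. In the cortex, 2 of 39 genes were called between dehydrated and control camels (ITGB2 and COL28A1, both on the study's list for that comparison) against 2.45% of all genes. None of the 39 was called between rehydrated and control cortex, against 0.0845% of all genes. There, 8 of the 39 and 1273 of all genes had an unadjusted p under 0.05, and DESeq2 and limma-voom also called none of the 39. Between rehydrated and dehydrated cortex 3 were called (ITGB4, COL28A1 and THBS2) against 2.32% of all genes. In the medulla, 3 were called between dehydrated and control camels (ITGBL1, COL15A1 and SERPINE2, all listed for it) against 1.68% of all genes, 2 between rehydrated and control camels (FBLN2 and FBLN5, both listed for it) against 0.813%, and 5 between rehydrated and dehydrated camels (FBLN2, SERPINE2, ITGB1BP1, COL1A1 and ITGB4) against 3.67%.

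The RNA lists chose 17 of the genes, and the 22 tested genes listed by their protein alone are those that no RNA list read here carried. Those lists came from the same libraries, so few calls among the 22 follow in part from how they were set apart. Of the 22, none was called in 5 of the 6 comparisons and 1 (COL1A1) between rehydrated and dehydrated medulla. Their counts at an unadjusted p under 0.05 were 5, 3 and 4 in the cortex (dehydrated against control, rehydrated against control, rehydrated against dehydrated) and 2, 1 and 5 in the medulla, against 2258, 1273 and 2323 and then 2066, 2264 and 3076 of the 15376 genes. By values alone, the groups did not overlap for 6, 1 and 4 of the 40 genes in the 3 cortex comparisons in the same order, against 5.53, 1.08 and 4.36% of all genes tested. In the medulla they did not overlap for 4, 3 and 2 genes, against 3.79, 2.79 and 4.75%. The 17 genes on an RNA list gave 4, 1 and 4 of these in the cortex and all of them in the medulla. These counts are therefore no independent evidence. Comparisons within a tissue share libraries: a gene high or low in the dehydrated libraries appears against both other groups.

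Between the tissues, which the rule did not use, the genes differed about as often as the rest of the genome. In control camels 24 of 39 genes were called between medulla and cortex (17 higher and 7 lower in the medulla), against 60.9% of all genes (32.2% higher and 28.6% lower). In dehydrated camels 26 were called (15 higher, 11 lower) against 65.4% (34.4% and 31%), and in rehydrated camels 26 (17 higher, 9 lower) against 61.1% (33% and 28.1%). Medulla and cortex libraries did not overlap for 19, 22 and 15 genes, against 42.9, 54.8 and 30.3% of all genes. The median log2 fold change of the 39 genes was 0.52, 0.25 and 0.47 in control, dehydrated and rehydrated camels against 0.10, 0.07 and 0.10 over all genes. The same 12 genes were higher in the medulla under all 3 treatments (24.6% of all genes), namely COL3A1, COL15A1, LAMC1, FBLN2, THBS1, THBS2, ITGA6, ITGB1, ADAM2, ADAM17, SERPINE2 and TIMP3. The same 6 were lower under all 3 (21.9% of all genes), among them COL22A1, COL28A1, ITGB1BP1, SERPINB6 and SERPINF2. Another 14 were called under 1 or 2 treatments and none in opposite directions. Scarce genes could pass the filter on low counts through 1 tissue alone. ADAM2 and SERPINA6 did so through the medulla, and COL28A1 and SERPIND1 through the cortex. For such genes the direction between the tissues follows in part from the filter. The shares called lay near those over all genes, so their number is no feature of these genes.

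These directions rest on the scaling, because TMM factors differed by tissue (0.740 to 0.900 in the cortex and 1.05 to 1.31 in the medulla). Scaling by library totals instead moved the medulla-against-cortex log2 fold changes up by a median over all genes of 0.52, 0.55 and 0.54. It raised the calls among the 39 genes to 33, 29 and 34, of which 22, 21 and 23 were calls with TMM too. Over all genes it turned the split of higher against lower calls from 4955 and 4402 to 7975 and 2207 in control camels, from 5288 and 4761 to 8062 and 2464 in dehydrated camels and from 5079 and 4323 to 8236 and 2214 in rehydrated camels. Calls lost with library totals included LAMC3 in control camels, ITGA8, ITGB1BP1, ITGB2, ITGB5 and THBS4 in dehydrated camels, and ITGA8 and THBS4 in rehydrated camels. ITGB1BP1 in dehydrated camels went from -0.63 to -0.07. Of the called genes here, ITGA8 and ITGB5 in dehydrated camels changed sign (from -0.53 to 0.01 and from -0.46 to 0.09). The plot of tissue differences gives the log2 fold change of each gene under each treatment.

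**Figure D2:**
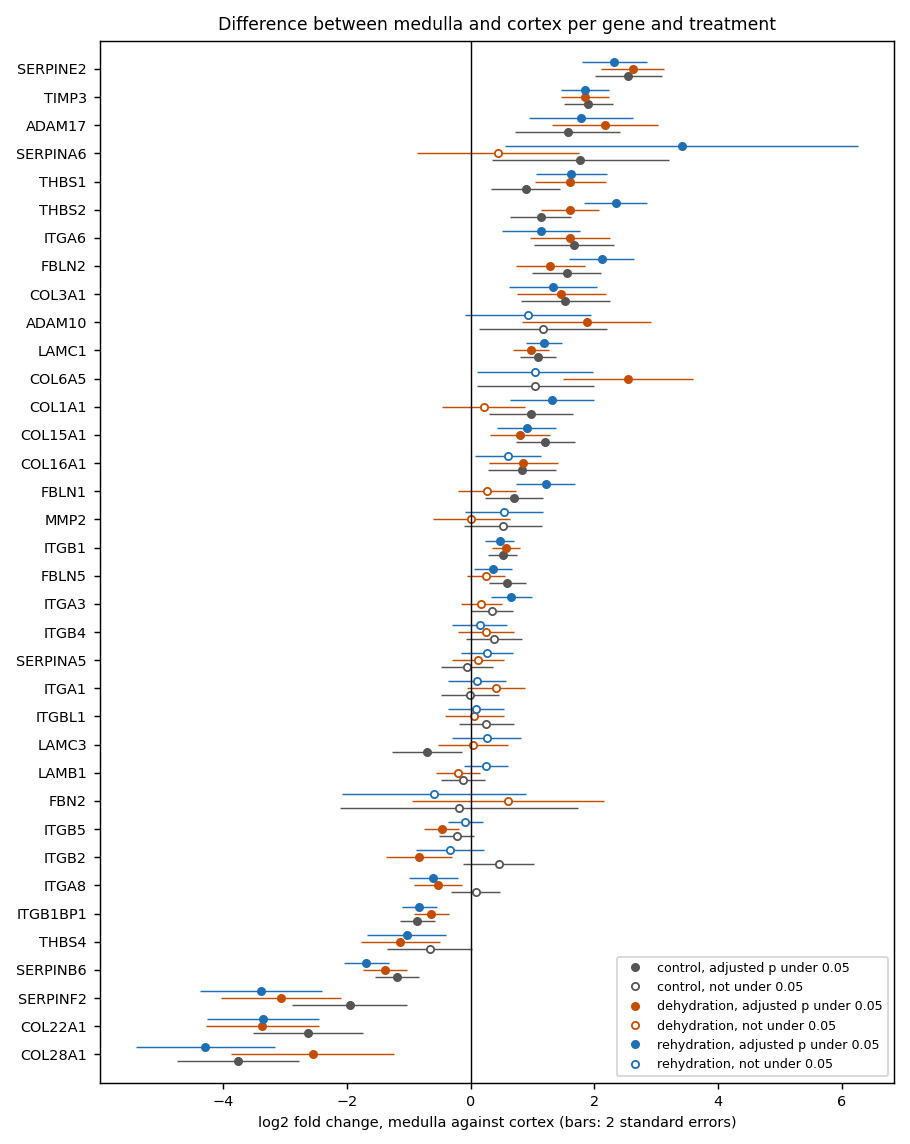
Log2 fold change of medulla against cortex (x axis) for 36 genes under each treatment, with bars of 2 standard errors and filled points for an adjusted p under 0.05; ADAM2, SERPIND1 and SERPINA7 are left out for low counts and 1 more gene is not shown. SERPINE2 and TIMP3 lay at the top with differences of 1.85 to 2.62, and COL28A1 and COL22A1 at the bottom with -2.55 to -4.29. COL28A1 passed the filter on low counts through the cortex alone.

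The 7 collagens are of different kinds: COL1A1 and COL3A1 form the fibres of the interstitium, COL15A1 belongs to basement membrane zones, COL16A1 and COL22A1 associate with fibrils or tissue junctions, COL6A5 is a chain of the beaded filament family, and COL28A1 is a related chain. COL15A1 (ENSCDRG00005015520, chromosome 4, 29964315 to 30060753, minus strand of CamDro2, the assembly of all positions given here) was lower in dehydrated medulla. COL15A1 in the medulla was at 115, 116, 51.6, 89.7 and 66 CPM in control camels, 75.1, 26.6, 34.5, 45.7 and 34.4 in dehydrated camels and 72.8, 71.7, 74.1, 49 and 77.4 in rehydrated camels. The dehydrated group lay low, but its highest library, replicate 1, overlapped the control group. The difference between dehydrated and control medulla, the comparison that listed the gene, had a log2 fold change of -1.02 with an SE of 0.24, and it missed the threshold without control replicates 1 or 2 or dehydrated replicates 2, 3, 4 or 5 (adjusted p 0.051 to 0.0738) or with medulla libraries fitted alone (adjusted p = 0.105). Against the dehydrated group, rehydrated medulla was higher by 0.67 without passing the test (adjusted p = 0.0975). COL15A1 in the cortex was at 43.1, 41.9, 25.5, 43.1 and 36.2 CPM in control camels, 29.4, 19.8, 23.9, 23.3 and 28 in dehydrated camels and 39.4, 50.3, 37.2, 28.2 and 29.3 in rehydrated camels. Dehydrated cortex was again lowest by mean, with overlap (log2 fold change against control -0.61, adjusted p = 0.21), and COL15A1 was higher in the medulla under all 3 treatments (log2 fold changes 1.21, 0.80 and 0.91).

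COL1A1, the main chain of type I collagen (ENSCDRG00005012316, chromosome 16, 27144942 to 27160086, minus strand), was the only gene of the 22 listed by protein alone that was called between treatments. COL1A1 in the medulla was at 65.1, 62.3, 38.5, 65 and 39.4 CPM in control camels, 39.7, 21.3, 35.4, 22.7 and 39.3 in dehydrated camels and 47.2, 43.9, 97.4, 27.3 and 147 in rehydrated camels. Rehydrated medulla was higher than dehydrated medulla (log2 fold change of 1.20, SE 0.33, adjusted p = 0.0415 by edgeR's quasi-likelihood test), yet its replicate 5 stood highest and its replicates overlapped the dehydrated libraries. The call was lost without dehydrated replicates 1, 2, 3, 4 or 5 or rehydrated replicates 1, 3 or 5 (adjusted p 0.0501 to 0.172) or with limma-voom, medulla libraries fitted alone, RNA integrity as a covariate, the earlier dispersion estimator or library totals (adjusted p 0.0829, 0.0862, 0.0513, 0.0627 and 0.0515). COL1A1 in the cortex was at 35.6, 28.1, 21.7, 26.9 and 25.3 CPM in control camels, 21.9, 21.1, 21.7, 19.7 and 51.9 in dehydrated camels and 28.4, 37.7, 16.8, 32.1 and 31.2 in rehydrated camels. In the cortex no treatment difference passed, and dehydrated replicate 5 was far above the other dehydrated libraries. COL3A1, the chain of type III collagen, ran from 13.2 to 70.3 (median 34.2) CPM in the cortex and 35.2 to 199.7 (median 82.7) in the medulla and was higher in the medulla under all 3 treatments (log2 fold changes 1.53, 1.47 and 1.33). COL1A1 was higher in the medulla in control and rehydrated camels and not called in dehydrated camels (log2 fold change 0.21, adjusted p = 0.593).

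COL28A1 (ENSCDRG00005003074, chromosome 7, 26928268 to 27078894, minus strand) was of low level and found mainly in the cortex. COL28A1 in the cortex was at 11.7, 4.44, 2.56, 8.19 and 3.71 CPM in control camels, 1.91, 1.91, 1.47, 1.37 and 0.566 in dehydrated camels and 6.19, 3.43, 5.52, 3.31 and 5.52 in rehydrated camels. Each dehydrated library lay below each control and each rehydrated library. The fall against control, which listed the gene, had a log2 fold change of -2.11 with an SE of 0.45, and it was past the threshold without any single library but not with edgeR's earlier dispersion estimator. The rise after rehydration shares the dehydrated libraries and had a log2 fold change of 1.75, SE 0.45, adjusted p = 0.0311 by edgeR's quasi-likelihood test, lost without dehydrated replicates 1, 2, 3, 4 or 5 or rehydrated replicates 1, 3 or 5 (adjusted p 0.053 to 0.0985) or with DESeq2, limma-voom or the earlier dispersion estimator (adjusted p 0.0642, 0.0824 and 0.149). COL28A1 in the medulla was at 0.765, 0.206, 0.223, 0.444 and 0.584 CPM in control camels, 0.23, 0.815, 0, 0.0786 and 0.0429 in dehydrated camels and 0.0426, 0.352, 0, 0.541 and 0.238 in rehydrated camels. Medulla levels were at or below 0.815 CPM and lower than the cortex under all 3 treatments (log2 fold changes -3.76, -2.55 and -4.29). COL28A1 passed the filter on low counts through its cortex libraries alone, so this direction follows in part from the filter.

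COL22A1 (ENSCDRG00005008680, chromosome 25, 36594624 to 36808480, minus strand) shared the cortical pattern at a higher level. COL22A1 in the cortex was at 61.2, 49.3, 144, 55.2 and 65 CPM in control camels, 68.5, 73.3, 81.7, 81.1 and 155 in dehydrated camels and 79.2, 211, 154, 87.1 and 183 in rehydrated camels. COL22A1 in the medulla was at 15.1, 3.29, 8.74, 12 and 21.1 CPM in control camels, 9.74, 13.3, 2.99, 3.89 and 14.7 in dehydrated camels and 18.6, 7.69, 13.3, 9.31 and 20.7 in rehydrated camels. No treatment difference passed in either tissue, while the medulla was lower under all 3 treatments (log2 fold changes -2.63, -3.37 and -3.36, adjusted p 1.56e-05, 6.47e-07 and 5.66e-07 by edgeR's quasi-likelihood test). COL6A5 spanned 1.64 to 21 (median 5.04) CPM in the cortex. It was at 3.19 CPM by mean in dehydrated against 10.6 in control cortex, the comparison that listed it. The difference did not pass the test here, though DESeq2 called it. COL16A1 spanned 6.42 to 19.5 (median 10.5) CPM in the cortex and 12 to 35.9 (median 16.9) in the medulla.

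Over the 7 collagens, the fitted difference between dehydrated and control camels was negative for 6 in the cortex (median log2 fold change -0.61) and for all 7 in the medulla (median -0.77), while the medians over all genes were 0.00329 and 0.0119. After rehydration it was positive for all 7 in both tissues (medians 0.84 and 0.65 against 0.0301 and 0.00488 over all genes). The 2 sets of differences share the dehydrated libraries and are no separate evidence, and 3 of the 7 (COL28A1 and COL6A5 in the cortex, COL15A1 in the medulla) had been listed for dehydration against control. COL16A1 had been listed for rehydrated against dehydrated cortex, so that 4 of the 7 entered through RNA values of these libraries. Per comparison 1 collagen passed the test, as the plot of collagen differences shows. Rehydrated against control collagens had medians of 0.09 in the cortex and 0.09 in the medulla, and none was called.

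**Figure D3:**
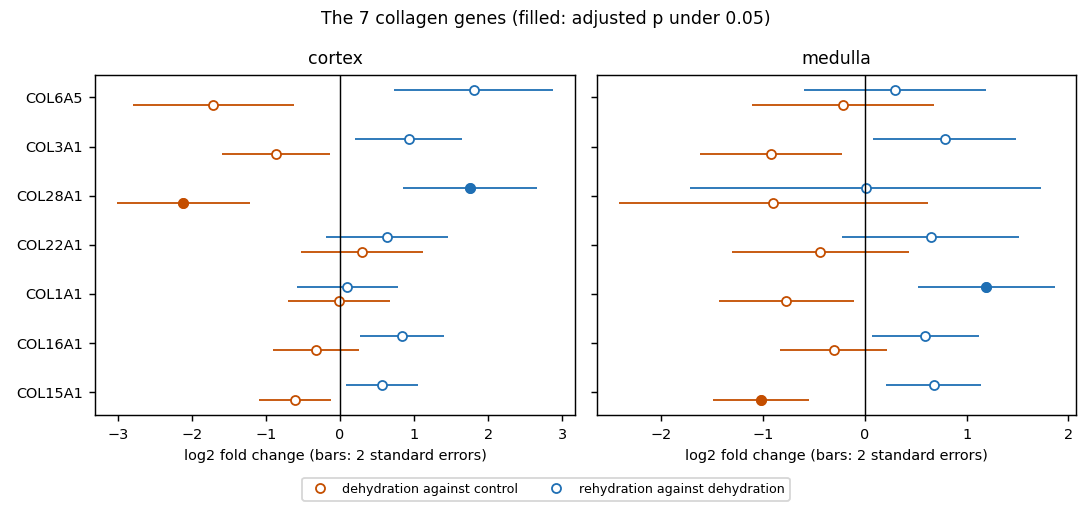
Log2 fold changes (x axis, bars of 2 standard errors) of the 7 collagens in cortex and medulla for dehydrated against control and rehydrated against dehydrated camels, filled where the adjusted p was under 0.05. Differences for dehydration lay left of 0 except that of COL22A1 in the cortex, and all for rehydration lay right of 0, with 4 filled points in all.

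The 3 laminins are chains of the network that underlies tubule cells, LAMB1 and LAMC1 in common with most basement membranes and LAMC3 with a narrower spread. LAMC1 spanned 39.4 to 76.1 (median 63) CPM in the cortex and 98.5 to 155 (median 128) in the medulla, and was higher in the medulla under all 3 treatments (log2 fold changes 1.08, 0.98 and 1.19). LAMB1 spanned 156 to 294 (median 182) CPM in the cortex and 137 to 311 (median 182) in the medulla and was called nowhere. LAMC3, listed for rehydrated against control medulla, was there at 14.1, 32.4, 38.7, 37 and 23.7 CPM in control and 42.4, 45.7, 65.9, 42.4 and 90.1 in rehydrated camels. These groups did not overlap, and the difference (log2 fold change of 0.97 with an SE of 0.28) did not pass the test here.

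FBLN2, a fibulin that links basement membrane and elastic fibre proteins (ENSCDRG00005004504, chromosome 17, 48470359 to 48514898, minus strand), gave the lowest adjusted p of the treatment differences among the genes. FBLN2 in the medulla was at 14.4, 13.4, 13.1, 15.8 and 11.3 CPM in control camels, 11.3, 8.27, 10.9, 8.25 and 9.36 in dehydrated camels and 31.1, 19, 42.4, 17.6 and 37.1 in rehydrated camels. Every rehydrated medulla library stood above every control and dehydrated one. The dehydrated libraries lay below the control ones, but the highest of them (11.26 CPM) was nearly level with the lowest control library (11.27). Against control, which listed the gene, rehydration gave a log2 fold change of 1.11 with an SE of 0.24, lost without control replicates 1, 3 or 5 or rehydrated replicates 1, 3 or 5 (adjusted p 0.0631 to 0.102) or with medulla libraries fitted alone or the earlier dispersion estimator (adjusted p 0.0510 and 0.0770). Against dehydration it gave a log2 fold change of 1.61, SE 0.25, adjusted p = 3.94e-04 by edgeR's quasi-likelihood test, which shares the rehydrated libraries with the listing comparison but brings in dehydrated ones, and which held without any single library and under every other setting tried. FBLN2 in the cortex was at 5.44, 3.78, 3.45, 4.27 and 6.21 CPM in control camels, 4.27, 3.36, 4.03, 3.0 and 4.78 in dehydrated camels and 2.98, 10.1, 9.55, 4.15 and 7.24 in rehydrated camels. Cortex values were lower and overlapped between treatments. The medulla was above the cortex under all 3 treatments (log2 fold changes 1.55, 1.29 and 2.12).

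FBLN5, which takes part in elastic fibre assembly (ENSCDRG00005005537, chromosome 6, 87252400 to 87323141, minus strand), went the other way. FBLN5 in the medulla was at 411, 283, 243, 273 and 223 CPM in control camels, 227, 141, 205, 282 and 191 in dehydrated camels and 176, 166, 216, 184 and 182 in rehydrated camels. Every rehydrated library lay below every control library, and the dehydrated group lay across both. The listed difference between rehydrated and control medulla had a log2 fold change of -0.63 with an SE of 0.15, lost without control replicates 1, 3, 4 or 5 or rehydrated replicates 1, 2 or 5 (adjusted p 0.0516 to 0.171) or with limma-voom, no filter on low counts, medulla libraries fitted alone, the replicate number as a block, the earlier dispersion estimator or library totals (adjusted p 0.0602, 0.0536, 0.0894, 0.0547, 0.0795 and 0.0595). FBLN5 in the cortex was at 181, 206, 174, 181 and 206 CPM in control camels, 185, 171, 148, 172 and 202 in dehydrated camels and 155, 145, 150.0, 153 and 116 in rehydrated camels. Rehydrated cortex also lay below every control library, without passing the test (log2 fold change -0.40, adjusted p = 0.417). FBLN1, a further fibulin, spanned 93.9 to 231 (median 178) CPM in the cortex and 193 to 465 (median 239.7) in the medulla, and the microfibril gene FBN2 0 to 0.764 (median 0.215) and 0 to 0.714 (median 0.156), with no treatment difference called for either.

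Thrombospondins are secreted proteins that bind matrix, proteases and cell receptors. THBS2 (ENSCDRG00005018864, chromosome 8, 880295 to 907645, plus strand) was higher in the medulla under all 3 treatments (log2 fold changes 1.14, 1.61 and 2.34, adjusted p 3.13e-04, 2.07e-06 and 2.38e-08 by edgeR's quasi-likelihood test). THBS2 in the cortex was at 4.85, 7.2, 5.32, 4.18 and 4.64 CPM in control camels, 4.12, 3.82, 10.4, 4.62 and 7.61 in dehydrated camels and 3.59, 2.89, 1.66, 3.31 and 4.23 in rehydrated camels. Rehydrated and dehydrated cortex, the comparison that listed it, overlapped, and their difference had a log2 fold change of -0.98 with an SE of 0.27, lost without dehydrated replicates 3, 4 or 5 or rehydrated replicates 1, 2, 3 or 4 (adjusted p 0.0503 to 0.225) or with limma-voom, DESeq2 size factors, no filter on low counts, cortex libraries fitted alone, the replicate number as a block, RNA integrity as a covariate or library totals (adjusted p 0.155, 0.0516, 0.0630, 0.133, 0.0675, 0.0583 and 0.0618). THBS2 in the medulla was at 10.5, 13.7, 11.2, 11 and 11.6 CPM in control camels, 25.2, 14.6, 20.5, 17.5 and 17.6 in dehydrated camels and 13.1, 15.7, 15.4, 13.7 and 22.5 in rehydrated camels. Every dehydrated medulla library lay above every control one, though the difference (log2 fold change of 0.72, SE 0.22, adjusted p = 0.104) did not pass. THBS1 (ENSCDRG00005001262, chromosome 6, 24094089 to 24111044, minus strand) was higher in the medulla under all 3 treatments (log2 fold changes 0.89, 1.61 and 1.63). THBS1 in the cortex was at 358, 474, 167, 330.3 and 239 CPM in control camels, 182, 204, 239.8, 159.8 and 265 in dehydrated camels and 269, 97.2, 116, 283 and 202 in rehydrated camels. THBS1 in the medulla was at 587, 810.3, 454, 668 and 393 CPM in control camels, 745, 685, 466, 806 and 516 in dehydrated camels and 522, 699, 406, 534 and 836 in rehydrated camels. The treatment groups overlapped in each tissue, and none of their THBS1 differences passed. THBS4 spanned 1.83 to 10.2 (median 6.21) CPM in the cortex and 1.68 to 5.21 (median 2.8) in the medulla and was called lower in the medulla in dehydrated and rehydrated camels.

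Among the integrin chains, ITGB2, the beta chain of leukocyte integrins (ENSCDRG00005021886, chromosome 1, 123458060 to 123482559, minus strand), differed after dehydration in the cortex. ITGB2 in the cortex was at 11.3, 6.26, 3.65, 7.85 and 8.35 CPM in control camels, 19, 11.7, 15.1, 14.9 and 20.8 in dehydrated camels and 10.4, 12.2, 12.2, 8.23 and 15.8 in rehydrated camels. Each dehydrated library was above each control library, with a log2 fold change of 1.12 with an SE of 0.29 in the comparison that listed the gene, lost without control replicates 2, 3 or 4 or dehydrated replicates 1, 3 or 5 (adjusted p 0.0535 to 0.0889) or with RNA integrity as a covariate (adjusted p = 0.0649). ITGB2 in the medulla was at 17.4, 8.27, 7.79, 6.9 and 10.9 CPM in control camels, 11.2, 8.6, 6.87, 5.3 and 13.9 in dehydrated camels and 9.46, 7.07, 11.4, 8.82 and 10.2 in rehydrated camels. Medulla groups overlapped. The tissue difference was called in dehydrated camels alone (log2 fold change -0.83, medulla lower), but the test of whether the dehydration difference itself varied with tissue gave an adjusted p of 0.315. Of 6 endothelial markers 2 had a symbol, which the study's own lists gave them. PECAM1 was also higher in dehydrated than control cortex (log2 fold change 0.74, SE 0.14, adjusted p = 0.00431 by edgeR's quasi-likelihood test). CDH5 was not called there (mean 48.7 against 37.2 CPM). Since the lists gave these symbols, this is no independent evidence, and no leukocyte marker had a symbol. The part of these cell types in the ITGB2 difference was not tested.

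ITGB4, the beta chain that pairs with ITGA6 at the base of epithelial cells (ENSCDRG00005005589, chromosome 16, 5156684 to 5183991, minus strand), was higher after rehydration than during dehydration in both tissues. ITGB4 in the medulla was at 31.4, 43.3, 41, 31.9 and 29 CPM in control camels, 26.2, 21.4, 30.6, 30.1 and 28.3 in dehydrated camels and 47.3, 44.6, 53.4, 41 and 51.3 in rehydrated camels. Every rehydrated medulla library was above every dehydrated one (log2 fold change of 0.80, SE 0.22, adjusted p = 0.0415 by edgeR's quasi-likelihood test). The gene was not on the portion of the list for this comparison that could be read, and the call was lost without dehydrated replicates 1, 2, 3, 4 or 5 or rehydrated replicates 1, 3 or 5 (adjusted p 0.0635 to 0.0973) or with no filter on low counts, RNA integrity as a covariate, the earlier dispersion estimator or library totals (adjusted p 0.0513, 0.0601, 0.0634 and 0.0503). ITGB4 in the cortex was at 33.3, 24.4, 41.5, 22.7 and 14.2 CPM in control camels, 22.9, 22.5, 18.4, 21.7 and 30.0 in dehydrated camels and 28, 56.2, 60.9, 26 and 43.9 in rehydrated camels. In the cortex, where the comparison listed it, the difference had a log2 fold change of 0.89 with an SE of 0.23 with overlapping groups, lost without dehydrated replicates 1, 2, 3 or 4 or rehydrated replicates 2 or 3 (adjusted p 0.0667 to 0.106) or with limma-voom or cortex libraries fitted alone (adjusted p 0.0707 and 0.120). Its partner ITGA6 (ENSCDRG00005000778, chromosome 5, 45059915 to 45135497, plus strand) had no treatment difference called. ITGA6 in the cortex was at 17.5, 18, 4.34, 15.5 and 12.1 CPM in control camels, 12.1, 10.9, 14.9, 12.6 and 9.63 in dehydrated camels and 19, 7.65, 12.2, 29.3 and 13 in rehydrated camels. ITGA6 in the medulla was at 33.2, 52, 25.6, 47.2 and 57.1 CPM in control camels, 24.7, 34.6, 35.3, 54.9 and 33.2 in dehydrated camels and 37.6, 50.0, 19.1, 35.3 and 37 in rehydrated camels. Treatment groups of ITGA6 overlapped in each tissue, and it was higher in the medulla under all 3 treatments (log2 fold changes 1.67, 1.60 and 1.14).

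ITGB1 (ENSCDRG00005019390, chromosome 35, 2108831 to 2131222, plus strand) and ITGB5 (ENSCDRG00005020949, chromosome 1, 63271776 to 63404609, plus strand) were the most abundant integrin chains per kilobase in the cortex. ITGB1 in the cortex was at 328, 369.6, 415, 342 and 354 CPM in control camels, 344, 384, 345, 395 and 357 in dehydrated camels and 338, 387, 427, 326 and 335 in rehydrated camels. ITGB1 in the medulla was at 538, 554, 511, 534 and 451 CPM in control camels, 502, 466, 628, 628 and 495 in dehydrated camels and 470.2, 504, 584, 412 and 540.4 in rehydrated camels. ITGB1 was higher in the medulla by 0.52, 0.58 and 0.47 on the log2 scale under the 3 treatments, and no treatment difference passed. ITGB5 in the cortex was at 221, 201, 223, 203 and 213 CPM in control camels, 216, 237, 247, 223 and 238 in dehydrated camels and 158, 229, 248, 162 and 316 in rehydrated camels. ITGB5 in the medulla was at 189, 201, 193, 148 and 175 CPM in control camels, 188, 162, 161, 162 and 169 in dehydrated camels and 258, 185, 229, 202 and 174 in rehydrated camels. ITGB5 was called lower in the medulla in dehydrated camels alone, a direction that turned with the scaling as given above. The other alpha chains were of middle to low level. ITGA8, a chain of kidney mesangial and interstitial cells, was at 36.5, 40.0, 23.1, 35.1 and 36.7 CPM in control and 57.3, 55.3, 61.7, 52.5 and 49.7 in dehydrated cortex, which did not overlap in the comparison that listed it (log2 fold change of 0.69 with an SE of 0.20), short of the threshold. DESeq2 and the fit of cortex libraries alone called this ITGA8 difference. ITGA1 and ITGA3, which bind collagen and laminin with ITGB1, spanned 36.5 to 69.7 (median 48.4) and 116 to 202 (median 149) CPM in the cortex and 35.9 to 93.8 (median 55.6) and 134 to 276 (median 205) in the medulla with no treatment difference called.

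ITGBL1, an integrin-like secreted protein (ENSCDRG00005018846, chromosome 14, 61743871 to 61905398, plus strand), was lower in dehydrated medulla. ITGBL1 in the medulla was at 6.6, 8.31, 7.74, 9.81 and 6.55 CPM in control camels, 5.47, 3.63, 3.97, 2.95 and 3.99 in dehydrated camels and 8.01, 4.18, 5.08, 6.93 and 6.15 in rehydrated camels. Each dehydrated medulla library was below each control library, with a log2 fold change of -0.97 with an SE of 0.22 in a comparison that listed it, lost without dehydrated replicate 4 (adjusted p = 0.0725) or with medulla libraries fitted alone (adjusted p = 0.0700). ITGBL1 in the cortex was at 7.4, 5.31, 5.32, 7.24 and 7.42 CPM in control camels, 2.9, 3.27, 3.18, 4.2 and 5.47 in dehydrated camels and 7.72, 7.26, 4.99, 4.5 and 4.16 in rehydrated camels. In the cortex, also a listing comparison, the difference (log2 fold change of -0.77 with an SE of 0.24) did not pass. DESeq2 called it. ITGB1BP1, which binds the tail of ITGB1 inside the cell (ENSCDRG00005021375, chromosome 15, 5780522 to 5793072, minus strand), was higher in dehydrated than rehydrated medulla. ITGB1BP1 in the medulla was at 38, 27.4, 35.8, 34.2 and 27.6 CPM in control camels, 46.3, 43, 47, 35.6 and 50.4 in dehydrated camels and 25.1, 28.2, 38.9, 27 and 36.8 in rehydrated camels. Rehydrated and dehydrated groups overlapped, with a log2 fold change of -0.51, SE 0.14, adjusted p = 0.0361 by edgeR's quasi-likelihood test, which shares the dehydrated libraries with the listing comparison, lost without dehydrated replicates 1, 2, 3 or 5 or rehydrated replicates 1, 2 or 4 (adjusted p 0.0562 to 0.129) or with medulla libraries fitted alone or the earlier dispersion estimator (adjusted p 0.0552 and 0.0505). ITGB1BP1 in the cortex was at 58.6, 49.5, 63.8, 53.6 and 71.4 CPM in control camels, 65.7, 80.4, 57.3, 77.1 and 64.7 in dehydrated camels and 49, 61.3, 53.8, 52.5 and 60.4 in rehydrated camels. Cortex libraries were above medulla ones by mean under all 3 treatments (medulla against cortex -0.86, -0.63 and -0.83), with no treatment difference called in the cortex.

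**Figure D4:**
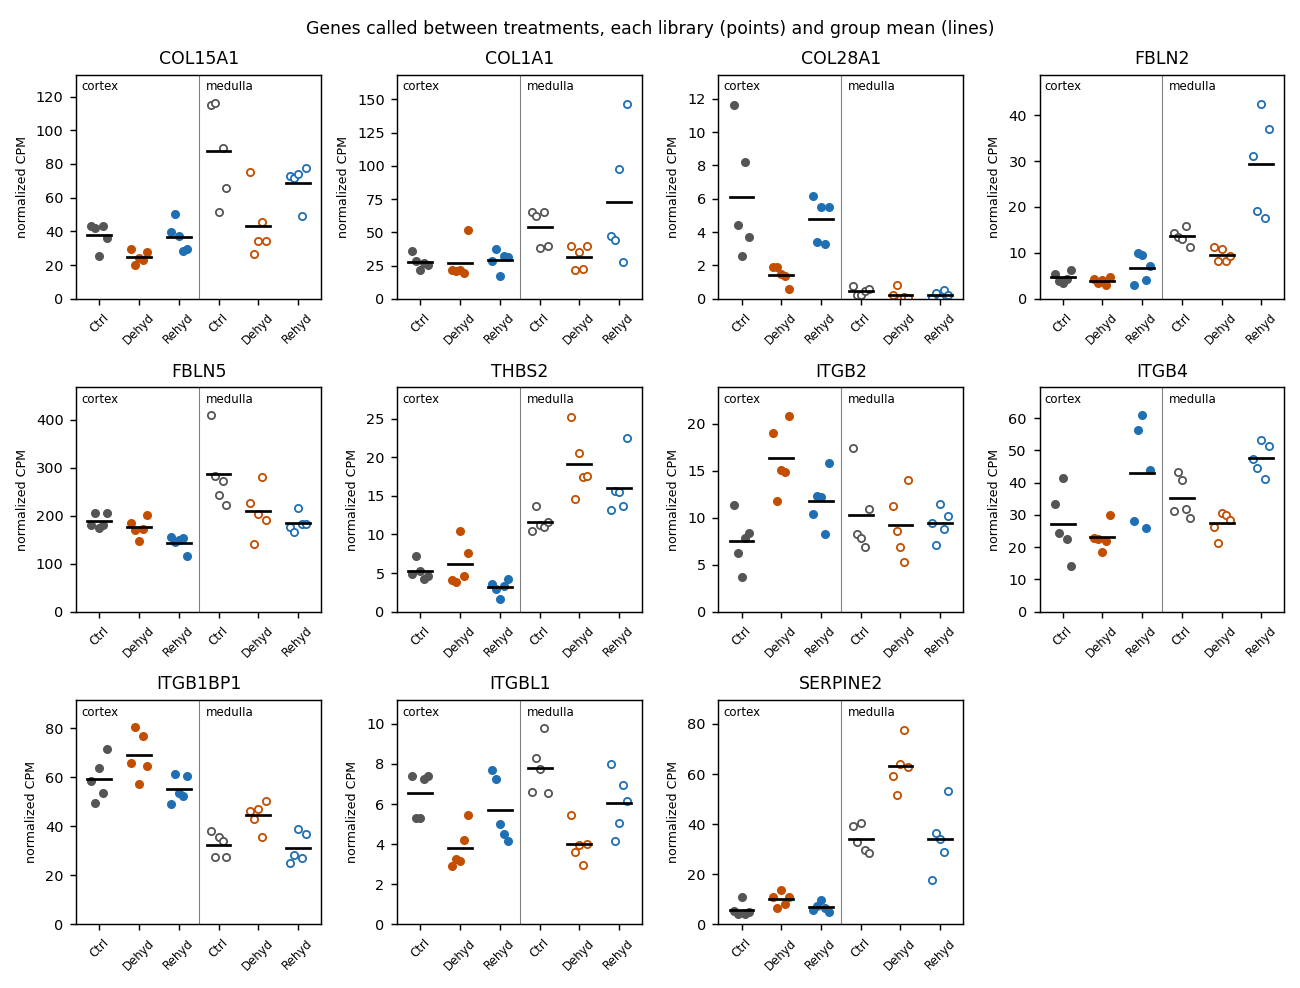
Normalized CPM (y axis, linear) of the 11 genes called between treatments within a tissue, with 1 point per library (filled in the cortex, open in the medulla) and a line at each group mean. FBLN2 in rehydrated medulla, SERPINE2 in dehydrated medulla and ITGB2 in dehydrated cortex stood above every control library, and COL28A1 in dehydrated cortex below.

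Of the 4 genes classed by name as proteases, ADAM2, a family member best known from the sperm surface (ENSCDRG00005010441, chromosome 26, 3723317 to 3769702, plus strand), was close to absent from the cortex. ADAM2 in the cortex was at 0, 0.0728, 0, 0 and 0 CPM in control camels, 0, 0, 0, 0 and 0 in dehydrated camels and 0, 0, 1.14, 0.0703 and 0 in rehydrated camels. ADAM2 in the medulla was at 0.765, 0.535, 1.11, 0.592 and 1.25 CPM in control camels, 0.459, 1.18, 0.897, 0.943 and 1.42 in dehydrated camels and 1.19, 0.859, 1.63, 1.41 and 1.43 in rehydrated camels. The medulla held 91 counts against 1 in the cortex of control camels (ratio of normalized counts 49.0, 95% exact counting interval 8.58 to 1958). It held 117 against 0 in dehydrated camels, so the medulla was at least 22.8-fold higher, with 3 counts over the group taken as the limit of 0. In rehydrated camels it held 139 against 14 (ratio 5.95, interval 3.43 to 11.2), and 13 of those 14 cortex counts came from replicate 3. These intervals cover counting error only, and ADAM2 passed the filter on low counts through its medulla libraries alone. ADAM10 and ADAM17, membrane proteases that release cell surface proteins, spanned 3.15 to 37.1 (median 11.9) and 0.986 to 10.8 (median 4.45) CPM in the cortex and 8.11 to 65.8 (median 31) and 7.38 to 28.6 (median 18) in the medulla. ADAM17 was higher in the medulla under all 3 treatments (log2 fold changes 1.57, 2.18 and 1.79) and ADAM10 in dehydrated camels. MMP2, a gelatinase, spanned 15.5 to 30.8 (median 22.4) CPM in the cortex and 10.9 to 64.2 (median 27.2) in the medulla and was called nowhere.

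SERPINE2, protease nexin 1, which inhibits thrombin and plasminogen activators (ENSCDRG00005002483, chromosome 5, 84409743 to 84463157, minus strand), differed both by tissue and in dehydrated medulla. SERPINE2 in the medulla was at 39.1, 32.9, 40.7, 29.7 and 28.5 CPM in control camels, 59.2, 51.8, 63.8, 77.6 and 63 in dehydrated camels and 17.6, 36.7, 33.9, 29 and 53.2 in rehydrated camels. Every dehydrated medulla library stood above every control one, with a log2 fold change of 0.88 with an SE of 0.24 in the comparison that listed it, but the call was lost without any 1 of the 10 libraries (adjusted p 0.052 to 0.154) or with DESeq2 size factors, no filter on low counts, a filter at a mean of 1 CPM, medulla libraries fitted alone, RNA integrity as a covariate or the earlier dispersion estimator (adjusted p 0.0512, 0.0582, 0.0529, 0.0707, 0.0888 and 0.0905). Rehydrated medulla was lower than dehydrated medulla (log2 fold change of -0.89, SE 0.24, adjusted p = 0.0324 by edgeR's quasi-likelihood test), which shares the dehydrated libraries, with 1 rehydrated library inside the dehydrated range, and was lost without dehydrated replicates 3, 4 or 5 or rehydrated replicates 1, 3 or 4 (adjusted p 0.0509 to 0.116) or with the earlier dispersion estimator (adjusted p = 0.0634). SERPINE2 in the cortex was at 5.36, 4.07, 10.8, 4.27 and 4.92 CPM in control camels, 11.1, 6.73, 13.9, 8.13 and 10.9 in dehydrated camels and 5.88, 7.41, 9.72, 6.47 and 4.8 in rehydrated camels. Cortex levels were far below those of the medulla (medulla against cortex 2.55, 2.62 and 2.32, adjusted p 1.74e-08, 5.70e-09 and 3.81e-08). In the cortex, dehydrated camels were higher than control camels by mean without passing (log2 fold change 0.81, adjusted p = 0.122).

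TIMP3 (ENSCDRG00005015818, chromosome 12, 25028678 to 25082853, minus strand) lay on the medullary side. TIMP3 in the cortex was at 173, 181, 118, 141 and 185 CPM in control camels, 206, 159, 192, 135 and 176 in dehydrated camels and 169.8, 159, 144, 176 and 127 in rehydrated camels. TIMP3 in the medulla was at 386, 779, 596, 521 and 705 CPM in control camels, 473, 536, 737, 828 and 551 in dehydrated camels and 524, 653, 378, 527 and 717 in rehydrated camels. Medulla and cortex libraries did not overlap under any treatment (log2 fold changes 1.90, 1.85 and 1.85, adjusted p 1.10e-08, 1.63e-08 and 1.28e-08), and no treatment difference passed. SERPINF2 (ENSCDRG00005010483, chromosome 16, 19664663 to 19670666, minus strand) lay on the cortical side. SERPINF2 in the cortex was at 297, 292, 314, 322 and 427 CPM in control camels, 708, 796, 615, 880.4 and 783 in dehydrated camels and 269.9, 313, 471, 418 and 1151 in rehydrated camels. Every dehydrated cortex library was above every control library, but the difference (log2 fold change of 1.19, SE 0.45, adjusted p = 0.179) did not pass. SERPINF2 in the medulla was at 86.3, 20.5, 73.7, 109 and 136 CPM in control camels, 118, 169, 14.4, 40.1 and 109 in dehydrated camels and 47.4, 30.0, 36.2, 62.6 and 74 in rehydrated camels. It was lower in the medulla under all 3 treatments (log2 fold changes -1.96, -3.07 and -3.39, adjusted p 7.70e-04, 5.42e-06 and 1.76e-06 by edgeR's quasi-likelihood test).

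SERPINB6 (ENSCDRG00005015210, chromosome 20, 1706457 to 1722048, minus strand) was likewise cortical. SERPINB6 in the cortex was at 434, 436, 404, 578 and 620.4 CPM in control camels, 449.7, 409.9, 349.7, 564 and 452 in dehydrated camels and 358, 650.4, 565, 407 and 678 in rehydrated camels. SERPINB6 in the medulla was at 211, 176, 290.3, 194 and 216 CPM in control camels, 172, 171, 179, 137 and 196 in dehydrated camels and 139.9, 159, 177, 212 and 139 in rehydrated camels. It was lower in the medulla under all 3 treatments (log2 fold changes -1.19, -1.38 and -1.68), and no treatment difference passed. SERPINA5 (ENSCDRG00005001433, chromosome 6, 89323686 to 89332302, plus strand), the most abundant of the genes per kilobase, overlapped between all groups. SERPINA5 in the cortex was at 802, 1078, 1052, 869 and 1082 CPM in control camels, 704, 831, 813, 781 and 673 in dehydrated camels and 999.7, 947, 1034, 878 and 657 in rehydrated camels. SERPINA5 in the medulla was at 898, 938, 1389, 698 and 749 CPM in control camels, 1098, 577, 855, 716 and 901 in dehydrated camels and 1154, 1049.6, 1655, 991 and 575 in rehydrated camels. It was called in no comparison of treatments or tissues. SERPINA6, the cortisol-binding globulin (ENSCDRG00005001296, chromosome 6, 89087547 to 89101282, minus strand), was scarce and uneven. SERPINA6 in the cortex was at 0.17, 0.364, 0, 2.27 and 0.742 CPM in control camels, 0.534, 0.818, 2.55, 0.942 and 0.503 in dehydrated camels and 0, 0, 0, 0.211 and 0.0717 in rehydrated camels. SERPINA6 in the medulla was at 0.382, 0.329, 3.73, 3.65 and 4.26 CPM in control camels, 3.4, 1.87, 0.897, 0.943 and 0.687 in dehydrated camels and 0.469, 0.156, 0.545, 1.89 and 0.714 in rehydrated camels. In the comparison that listed it, every rehydrated cortex library lay below every dehydrated one. The higher medulla level was called in control and rehydrated camels (adjusted p 0.0329 and 0.0386 by edgeR's quasi-likelihood test). In control camels the call was lost without cortex replicates 1, 2, 3 or 5 or medulla replicates 3, 4 or 5 (adjusted p 0.0541 to 0.103). In rehydrated camels it was lost without cortex replicates 1, 2, 3 or 5 or medulla replicates 4 or 5. SERPINA6 passed the filter on low counts through its medulla libraries alone. SERPIND1, a thrombin inhibitor of plasma, had 13, 77 and 60 counts over the control, dehydrated and rehydrated cortex libraries and 10, 4 and 4 in the medulla. The cortex-to-medulla ratio of normalized counts was 2.41 (95% exact counting interval 0.977 to 6.15), 32.9 (12.3 to 124) and 25.0 (9.28 to 94.8). SERPIND1 passed the filter on low counts through its cortex libraries alone.

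Whether a treatment difference varied with the tissue was tested by interaction. None of the 39 genes passed for dehydration, against 0.0455% of all genes (7 genes), or for rehydration against control, where 0% of all genes passed. At an unadjusted p under 0.05 stood 4 and 5 of the 39 genes, and 1163 and 780 of all genes. The lowest adjusted p was that of ITGB2 for dehydration (0.315), and DESeq2, limma-voom and the fit with a block on the animal number called none of the 39 either. Thus the calls made in 1 tissue alone were not shown to be particular to it.

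Partners of the same fibre, receptor or pathway were tested for joint variation among animals, as 8 pairs in each tissue (16 relations), with group means removed and 15 libraries per tissue. COL1A1 and COL3A1 varied together in the cortex (Pearson r = 0.853, permutation p = 3.10e-04, adjusted p = 0.00248, Spearman rho = 0.836, permutation p = 5.00e-04, adjusted p = 0.004; r = 0.755 without the 2 libraries farthest from the median of COL1A1). In the medulla the same test gave r = 0.901 (permutation p = 2.90e-04, adjusted p = 0.00248, Spearman rho = 0.882, permutation p = 4.20e-04, adjusted p = 0.004; r = 0.94 without 2 libraries), but the libraries fell into separate clumps above and below the COL1A1 mean. Within the sides, given without a test, r was 0.467 over the 8 medulla libraries above and 0.776 over the 7 below, and the same split of the cortex gave 0.759 over 7 and 0.531 over 8. No pair outside COL1A1 and COL3A1 passed. The chains of 1 receptor or laminin, such as LAMB1 and LAMC1 (r = -0.103 in the cortex and -0.0232 in the medulla, adjusted permutation p = 0.666 and 0.945) or ITGA6 and ITGB4 (-0.666 and -0.188, adjusted permutation p = 0.143 and 0.651), were not shown to vary together. The median r over all 741 pairs of the 39 genes was -0.00961 in the cortex and 0.0283 in the medulla.

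ADAM10 and ADAM17 were among the most alike of all pairs, and were picked after the values were seen, among 12 relations added so. Their r was 0.825 in the cortex (rho = 0.868, r = 0.797 without the 2 farthest libraries) and 0.942 in the medulla (rho = 0.882, r = 0.871), with 15 libraries each, given with no test. Both also ran with the TMM factor of the library, ADAM10 at r = 0.842 and 0.851 and ADAM17 at 0.676 and 0.944 in cortex and medulla, and the part of that factor in their likeness was not tested. For COL1A1 the same r was 0.278 and 0.0388 and for COL3A1 0.37 and -0.063. The scatter plots of both pairs show each library.

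**Figure D5:**
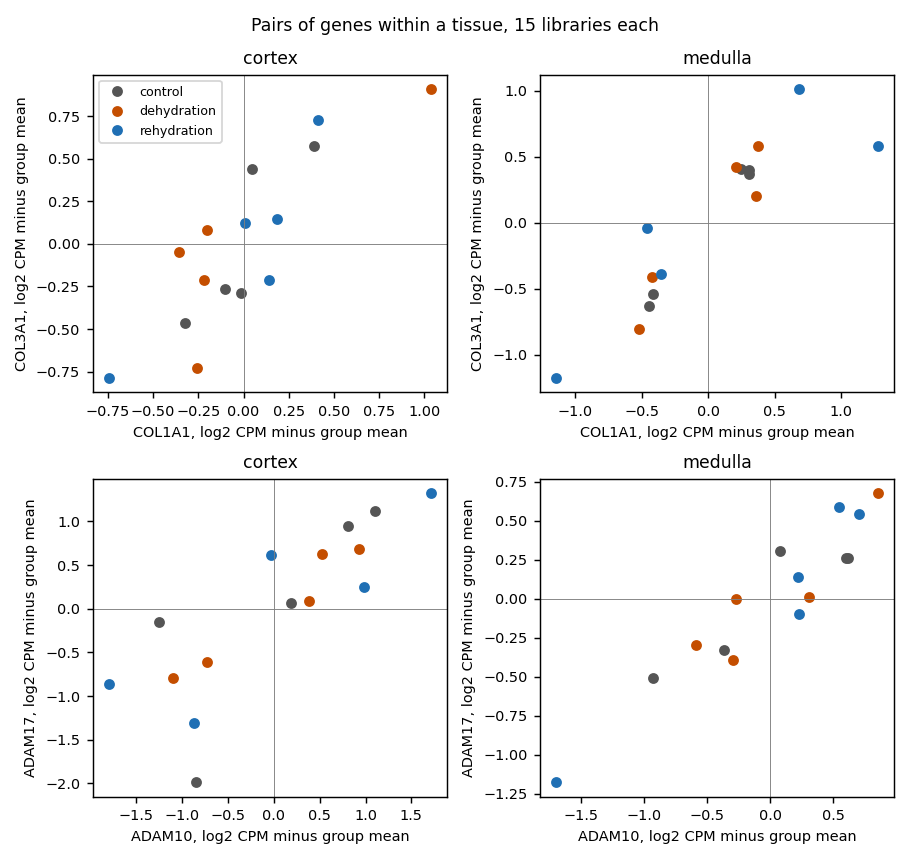
Log2 CPM minus the group mean of COL3A1 against COL1A1 (top) and of ADAM17 against ADAM10 (bottom) in cortex and medulla, 1 point per library with 15 in each panel. The collagen pair spread along a line in the cortex (r = 0.853) and in separate clumps in the medulla, and the ADAM pair varied together in both tissues (r = 0.825 and 0.942).

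Of 53 other matrix genes searched, 20 had a symbol, which they owe to the study's own lists, and all were tested. Those called higher and lower were 2 and 1 in dehydrated against control cortex, none in rehydrated against control cortex, 1 and 2 in rehydrated against dehydrated cortex, 0 and 2 in dehydrated against control medulla, 1 and 1 in rehydrated against control medulla and 2 and 2 in rehydrated against dehydrated medulla. Over all genes 2.45, 0.0845, 2.32, 1.68, 0.813 and 3.67% were called in these comparisons in the same order, and since the lists gave these 20 genes their symbols, their counts are no independent evidence. Tenascin C (TNC), a matrix glycoprotein of remodelling tissue, was lower in dehydrated than control cortex (log2 fold change -2.55, SE 0.52, adjusted p = 0.00572) and higher in rehydrated than dehydrated cortex (log2 fold change 2.05) by edgeR's quasi-likelihood test. Biglycan (BGN), a small proteoglycan, was lower than control in dehydrated (-0.74) and rehydrated medulla (-0.70), and P4HA1, which hydroxylates collagen, was higher in dehydrated cortex (0.75). Fibronectin (FN1), nidogen 1 (NID1) and elastin (ELN) were among those higher in the medulla under all 3 treatments, FN1 by 2.26, 2.07 and 2.43. Between the tissues 11 and 2, 11 and 5, and 10 and 2 of the 20 were called higher and lower in the medulla of control, dehydrated and rehydrated camels, where 32.2 and 28.6%, 34.4 and 31%, and 33 and 28.1% of all genes were. Of 6 genes of the plasmin system, on which SERPINE2 and SERPINF2 act, 3 were tested. PLAU, the urokinase that activates plasmin, and the broad inhibitor A2M were higher in the medulla under all 3 treatments. The plasminogen receptor PLGRKT was lower in dehydrated than control cortex (-0.49) and higher after rehydration (0.78).

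Some of the genes are neighbours on CamDro2. ITGB1BP1 and ADAM17 lie 47809 bases apart on the same strand of chromosome 15 and differed by tissue in opposite directions, the first being lower and the second higher in the medulla under all 3 treatments. ITGA3 and COL1A1 lie 81592 bases apart on chromosome 16, and SERPINA6 and SERPINA5 lie 222403 bases apart on chromosome 6. Of the latter pair SERPINA5 ranked 1 of 40 per kilobase in both tissues, and SERPINA6 ranked 37 in the cortex and 34 in the medulla.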

How the data were processed

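RNA was sequenced from 30 kidney libraries, 5 animals in each of 6 groups of tissue and treatment, after poly(A) selection. The authors deposited a table of raw read counts per gene, made by trimming reads with BBDuk, aligning them to CamDro2 and counting read pairs on exons with featureCounts 1.6.2 against Ensembl release 100, reverse-stranded. Both STAR and Rsubread are named as the aligner, and which gave the counts is not settled. Reads shared by near-identical genes could be lost or split in this counting.

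The counts were fitted with edgeR 4.0.16 (R 4.3.3). Genes passing filterByExpr (minimum count 10, minimum total 15; 15376 of 19578 with a count) were normalized by TMM and fitted in a single quasi-likelihood model of 6 groups with 24 residual degrees of freedom, and p-values of each comparison were adjusted over all genes tested. Log2 CPM for correlations and plots used a prior count of 2. Correlations were tested by 100000 permutations within treatment groups, two-sided. Ratios of low counts have exact 95% counting intervals, and a group at 0 was set to 3 counts. Alternatives were DESeq2 1.42.0, limma-voom (limma 3.58.1), other scalings and filters, each tissue fitted alone, blocks, RNA integrity as a covariate, edgeR's earlier dispersion estimator and leaving out each library. The fits and correlations were tested on simulated data with known changes. No libraries of a group were identical (highest correlation 0.981).

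The genes, and the lists of other genes, were chosen with earlier results of these data known. Values in every library are given for genes called between treatments, for the 5 highest and 5 lowest called genes between the tissues of control camels and for the 5 highest per kilobase in each tissue. Genes were matched to the table by identifier, and all 40 were found. Cortex and medulla libraries were paired by the animal number of the labels. For rehydrated camels this follows the replicate number, which the library codes contradict, so that blocks there are of replicate number and not of a known animal. The mean correlation of their deviations from the group means was 0.139 in control, 0.0934 in dehydrated and 0.0487 in rehydrated camels. The supplementary lists served to choose and name the genes and to tell which comparison listed each. No values were taken from them. The values of 1 of the 40 genes are not reported here singly, though it is counted in the totals.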

Additional observations from a re-analysis of the deposited data

Results flagged for a closer look

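The 22 genes with values in every library gave 132 groups of 5 libraries. By Dixon's criterion, 14 of these had a highest or lowest library that stood apart from the other 4. For normally distributed values chance flags about 1 in 20 groups. CPM need not be so distributed, and a group with 1 library above 0 is always flagged. The 14 flagged libraries are therefore not set against that rate. All values are normalized CPM. In the cortex of control camels these were ADAM2 in replicate 2 (0.0728, the others 0), COL22A1 in replicate 3 (144, next 65), SERPINE2 in replicate 3 (10.8, next 5.36) and SERPINF2 in replicate 5 (427, next 322). In dehydrated cortex they were COL1A1 in replicate 5 (51.9, next 21.9), COL22A1 in replicate 5 (155, next 81.7) and SERPINA6 in replicate 3 (2.55, next 0.942). In rehydrated cortex they were ADAM2 in replicate 3 (1.14, next 0.0703), FBLN5 in replicate 5 (116, the lowest, next 145) and SERPINF2 in replicate 5 (1150.7, next 471). In dehydrated medulla they were COL28A1 in replicate 2 (0.815, next 0.23) and ITGB5 in replicate 1 (188, next 169). In rehydrated medulla they were COL15A1 in replicate 4 (49, the lowest, next 71.7) and THBS2 in replicate 5 (22.5, next 15.7).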

How the results depend on the processing

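None of the 25 gene results recomputed under alternatives changed sign, while ITGA8 and ITGB5 between the tissues of dehydrated camels did with library totals (from -0.53 to 0.01 and from -0.46 to 0.09). Genes on an RNA list called between treatments numbered 2, 0 and 3 for the cortical comparisons and 3, 2 and 4 for the medullary ones, but 1 to 3, 0, and 0 to 2, then 0 to 2, 0 to 3 and 1 to 3 when each library was left out. With libraries of a tissue fitted alone they numbered 3, 0 and 1, then 0, 0 and 3. Among the 22 genes listed by protein alone, dehydrated against control cortex gave 1 call rather than 0 with cortex libraries fitted alone (SERPINF2) and 1 with a replicate block on the replicate number (SERPIND1). Rehydrated against dehydrated medulla gave 0 rather than 1 (COL1A1) with limma-voom, medulla libraries alone, RNA integrity as a covariate, the earlier dispersion estimator or library totals, and 0 to 1 when each library was left out. Between treatments, 15 gene results gave 300 recomputed values, of which 172 kept their call and 128 did not. FBLN2 between rehydrated and dehydrated medulla kept it throughout, and COL28A1 between dehydrated and control cortex lost it only with the earlier estimator (adjusted p = 0.0754). Between the tissues of control camels, 189 of 198 values for 10 genes kept their call, the other 9 being of SERPINA6. RNA integrity as a covariate left 20 of 26 calls in dehydrated camels, without COL15A1, COL16A1, ITGA8, ITGB2, ITGB5 and THBS4, and 23 of 26 in rehydrated camels, without COL15A1, FBLN5 and THBS4. Calls between tissues numbered 23 to 25, 25 to 27 and 24 to 28 when each library was left out, and 25, 26 and 25 with the animal number as a replicate block in control, dehydrated and rehydrated camels. Within a tissue samples share only a number, and with that number as a block the 39 genes gave 3, 0 and 2 cortical calls and 3, 1 and 5 medullary ones. Over all genes DESeq2 called 706, 124 and 718 (cortex), 394, 269 and 860 (medulla) and 57 and 2 for the interactions, where edgeR called 376, 13 and 356, then 259, 125 and 565, then 7 and 0. The earlier estimator called 6 in rehydrated against control cortex and 149, 34 and 306 in the medulla. In rehydrated against control cortex the count was 4 with limma-voom, 8 without the filter, 0 with cortex libraries alone, 5 with RNA integrity and 23 with library totals. RNA integrity left 231 in dehydrated against control cortex, medulla libraries alone gave 89 against control after dehydration and 40 after rehydration, and the dehydration interaction gave 1 with the animal number as a block and 12 with library totals. Of the 39 genes DESeq2 called 5, 0 and 7 in the cortical comparisons and 4, 2 and 5 in the medullary ones. In dehydrated against control cortex it added COL6A5, ITGA8 and ITGBL1, and in dehydrated against control medulla ITGB1BP1. In rehydrated against dehydrated cortex it lost COL28A1, and those it added included ADAM2, COL16A1, COL6A5 and SERPINA6. The causes of these changes were not tested. With 5 animals per group, the spread between animals limits the treatment comparisons of all but the scarce genes, for which counts do.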
